A study of Mus musculus with 4 samples.

Results

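The 10 genes described here are nuclear receptors and cofactors that set the capacity of the heart to burn fatty acids. They are the PPAR receptors *Ppara*, *Ppard* and *Pparg*, the coactivators *Ppargc1a* and *Ppargc1b* (PGC-1α and PGC-1β), the estrogen-related receptors *Esrra*, *Esrrb* and *Esrrg*, the dimer partner *Rxra* and the corepressor *Nrip1*. They were chosen by name, and all 10 were found among the 55401 genes of the expression table. Hearts of 8-week-old wild-type mice were compared with hearts of Ctcf heterozygous mice of the same age, with 2 RNA-seq libraries per genotype. The heterozygous mice carried 1 wild-type allele and 1 allele encoding CTCF-R567W, made by CRISPR/Cas9 editing of the germ line, so that every cell type of the heart carried it. CTCF is a zinc finger protein that binds DNA and shapes chromatin loops. No treatment was given to either genotype, and all mice had free access to food. The comparison asks whether these regulators, and the genes known to lie under their control, were at other levels in the heterozygous heart.

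PPAR receptors bind DNA as dimers with an RXR receptor. When fatty acids or their derivatives occupy them, they switch on genes of fatty acid uptake, storage and oxidation. ERR receptors bind a related DNA element without a known natural hormone, and they control genes of the citric acid cycle, the respiratory chain and energy transfer. PGC-1 coactivators dock on both receptor families and raise their activity, whereas *Nrip1* encodes RIP140, a corepressor that opposes them. In the adult heart, which draws most of its energy from fatty acids, PPARα, ERRα and ERRγ with PGC-1 are known as the main activators of this programme.

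Promoter sequences are shown for *Esrra* and *Ppara*, the regulators with the highest and the lowest level in these hearts, and for the windows in which an ERR element was found in *Rxra* and in the target genes *Perm1* and *Acadm*. Each window runs 5′ to 3′ from 250 bases before to 50 bases after a start site, taken from RefSeq on GRCm38.p6. Capitals mark the GC box GGGCGG or its reverse complement in the first 2 sequences, and the ERR element AAGGTCA or its reverse complement in the other 3.
*Esrra* chr19:6921759-6922058 (minus strand): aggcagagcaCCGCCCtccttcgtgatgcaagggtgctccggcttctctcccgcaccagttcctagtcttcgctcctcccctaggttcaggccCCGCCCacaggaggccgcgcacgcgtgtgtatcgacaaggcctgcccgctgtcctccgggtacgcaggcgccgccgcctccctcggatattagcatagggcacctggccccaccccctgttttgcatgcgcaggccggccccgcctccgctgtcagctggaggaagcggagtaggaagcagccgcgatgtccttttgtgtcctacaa
*Ppara* chr15:85735526-85735825 (plus strand): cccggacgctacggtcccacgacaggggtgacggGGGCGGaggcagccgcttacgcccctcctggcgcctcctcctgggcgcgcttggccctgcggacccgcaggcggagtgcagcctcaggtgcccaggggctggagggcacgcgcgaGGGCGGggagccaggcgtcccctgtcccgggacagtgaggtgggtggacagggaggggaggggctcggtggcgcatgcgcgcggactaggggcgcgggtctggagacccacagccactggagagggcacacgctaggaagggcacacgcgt
*Rxra* chr2:27709042-27709341 (plus strand): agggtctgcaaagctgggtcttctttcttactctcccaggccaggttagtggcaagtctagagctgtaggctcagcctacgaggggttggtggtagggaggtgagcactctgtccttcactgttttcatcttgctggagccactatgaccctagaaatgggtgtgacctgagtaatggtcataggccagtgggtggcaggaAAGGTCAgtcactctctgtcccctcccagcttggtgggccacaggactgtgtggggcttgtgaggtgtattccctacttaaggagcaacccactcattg
*Perm1* chr4:156215677-156215976 (plus strand): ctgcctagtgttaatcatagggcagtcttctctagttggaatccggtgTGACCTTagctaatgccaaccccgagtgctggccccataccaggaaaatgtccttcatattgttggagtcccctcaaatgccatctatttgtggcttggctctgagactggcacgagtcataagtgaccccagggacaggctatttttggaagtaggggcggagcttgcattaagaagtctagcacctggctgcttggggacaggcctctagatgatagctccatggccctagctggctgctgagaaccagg
*Acadm* chr3:153944594-153944893 (minus strand): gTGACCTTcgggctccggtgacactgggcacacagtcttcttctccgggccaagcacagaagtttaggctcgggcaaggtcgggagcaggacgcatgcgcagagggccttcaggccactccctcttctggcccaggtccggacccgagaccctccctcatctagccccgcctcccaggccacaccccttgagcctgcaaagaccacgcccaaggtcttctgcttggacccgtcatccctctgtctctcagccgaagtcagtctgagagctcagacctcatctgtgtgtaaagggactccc

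The windows listed for the regulators numbered 17, from 9 of the 10 genes, because several genes have more than 1 start site. The ERR element, read on both strands, occurred in 1 of these 17 windows (5.88%), the *Rxra* window printed above, where it began 49 bases before the start site. It occurred in 4.72% of all 32851 promoter windows. The GC box occurred in 9 of the 17 windows (52.9%) and in 35.7% of all windows. The PPAR element AGGTCANAGGTCA, in which AGGTCA recurs after 1 spacer base, was in none of the 17 windows and in 0.0396% of all windows. The cyclic AMP response element TGACGTCA was in none of them and in 1.79% of all. In the target lists described further on, the ERR element was in 2 of 27 windows of ERR and PGC-1 targets, those of *Perm1* and *Sdhd*, and in 1 of 31 windows of PPAR targets, that of *Acadm*. It began 202 bases before the start in *Perm1* and 249 bases before it in *Acadm*. A match in these letters is a description of the sequence and does not show that a receptor binds there.

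Expression was given as TPM (a transcript's share of its library, per length). The heart label held: *Myh6*, the main myosin heavy chain of the adult mouse heart, stood between 7466 and 11559 TPM. Transcripts of the mitochondrial genome took 64.7% and 61.1% of all TPM in wild-type replicates 1 and 2, and 68.6% and 62.6% in heterozygous replicates 1 and 2. The shares overlapped between genotypes. Before any scaling, the median log2 fold change of tested genes was -0.35, and with mitochondrial transcripts removed it was -0.29. Each library was therefore divided by a median-of-ratios factor (1.08 and 1.27 in wild-type, 0.821 and 0.910 in heterozygous hearts). After this the 10036 tested genes had a median log2 fold change of -0.01, and values below are relative to it. *Ctcf* itself had scaled TPM of 6.15 and 5.99 in wild-type and 7.48 and 5.71 in heterozygous hearts, so the genotypes overlapped, and its log2 fold change of 0.09 turned to -0.29 without scaling. The edit alters the protein, so this level does not check the labels. A gene was called where its limma adjusted p was below 0.05 and it differed by more than 1.5-fold. Over all genes, 3 were called lower (0.0299% of those tested) and none higher (0%), while 624 were higher at an unadjusted p under 0.05. They were *Gm8186*, a 2nd gene model of *Zc3h11a* and *Gm14325*, named after their values were seen, and none belongs to the lists described here.

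The regulators spanned a wide range of levels, with *Esrra* far above all others. *Esrra* averaged 35.9 TPM over the 4 libraries and *Ppara* 0.288 TPM, a ratio of 125. Between them, in falling order of mean TPM, stood *Ppard* (2.35), *Rxra* (2.32), *Pparg* (1.35), *Ppargc1a* (1.03), *Ppargc1b* (0.815), *Esrrb* (0.743), *Esrrg* (0.618) and *Nrip1* (0.460). This order is per length. *Esrra*, *Rxra*, *Pparg*, *Ppargc1a* and *Nrip1* were each above the next gene in all 4 libraries, whereas the neighbours *Ppard* and *Rxra*, *Ppargc1b* and *Esrrb*, *Esrrb* and *Esrrg*, and *Esrrg* and *Nrip1* kept their order in 3 of 4. Values were deposited with 2 decimals, so that rounding alone could move the lowest *Ppara* value by 3.85% and the lowest *Esrra* value by 0.0167%. Among genes detected in a library, *Esrra* ranked between the 96.2 and 96.8 percentile, while *Ppara* ranked between the 26.7 and 39.0 percentile.

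**Figure D1:**
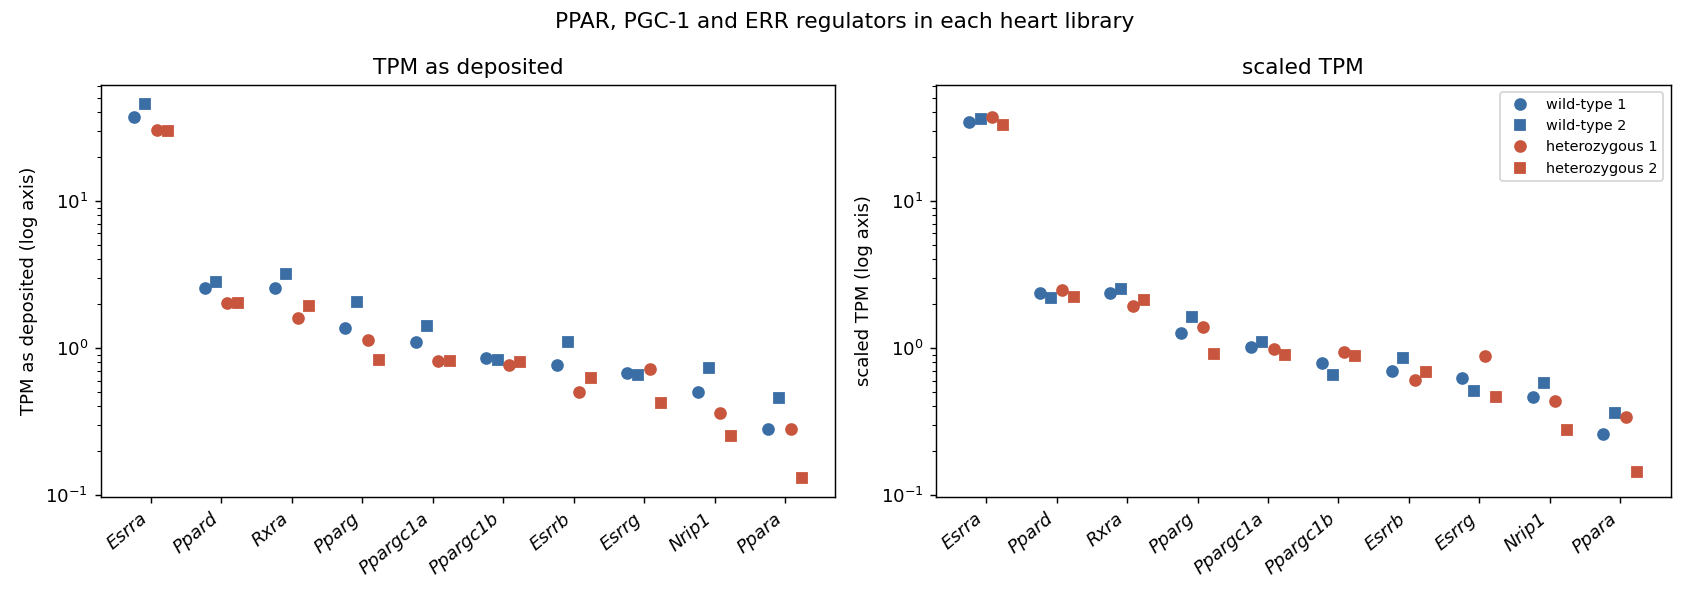
TPM of the 10 regulators (vertical axes, log scale) as deposited on the left and scaled on the right, with 1 point per library, in falling order of mean TPM. *Esrra* lies far above the others, and after scaling the genotypes overlap for *Ppara*, *Ppard*, *Pparg*, *Esrra* and *Esrrg*.

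Of the 10 regulators, none was called in either direction, against 0.0299% of all tested genes called lower and 0% called higher. The test covered 5 of them, since *Ppara*, *Ppargc1b*, *Esrrb*, *Esrrg* and *Nrip1* lay under the floor of a mean of 1 TPM. *Pparg* and *Ppargc1a* cleared this floor only through their wild-type libraries. None of the 5 had an unadjusted p under 0.05 in limma, where 6.08% of all tested genes were lower and 6.22% higher at that level. By position alone, in scaled TPM, 4 of the 10 had both heterozygous libraries below both wild-type libraries, and 1 had both above. Over the 17041 genes detected in all libraries, 22.2% separated downwards and 23.0% upwards. In deposited TPM, 8 of the 10 separated downwards and none upwards, where 55.8% of all genes separated downwards and 4.51% upwards. The median log2 fold change of the 5 tested regulators was -0.08. In bulk tissue, fewer cells of a type and less RNA per cell cannot be told apart.

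Among the PPAR receptors, *Ppara* (chromosome 15, 85734983 to 85802819, mm10 with GENCODE M21 gene models, as for all positions below) encodes PPARα, the isoform known for fatty acid oxidation in heart and liver. Scaled TPM of *Ppara* was 0.259 and 0.363 in wild-type replicates 1 and 2 and 0.341 and 0.143 in heterozygous replicates 1 and 2. The heterozygous libraries held the lowest and the second-highest value, so the genotypes overlapped. The means were 0.311 ± 0.0737 (SD, n = 2) in wild-type and 0.242 ± 0.140 (SD, n = 2) in heterozygous hearts. With every detected gene admitted to the limma fit, its log2 fold change was -0.08 (adjusted p = 0.798). This value is of scaled TPM + 1, which understates the change of genes near or under 1 TPM, and the ratio of means was 0.779. A level this low gives a coarse reading, and a difference could not be resolved with 2 libraries per genotype.

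*Ppard* (chromosome 17, 28232700 to 28301474) encodes PPARδ, a receptor active in most tissues and known to drive fatty acid oxidation in muscle. Its scaled TPM was 2.37 and 2.20 in wild-type and 2.47 and 2.22 in heterozygous hearts, so that the libraries interleaved. The log2 fold change was 0.03 (SE 0.13, limma adjusted p = 0.945), and its 95% interval ran from 0.816-fold to 1.27-fold. Without scaling the same value was -0.28, so its direction rests on the scaling. *Pparg* (chromosome 6, 115360951 to 115490399), the receptor that adipocytes need to form, had scaled TPM of 1.26 and 1.63 in wild-type and 1.39 and 0.912 in heterozygous hearts. Its extremes were wild-type replicate 2 and heterozygous replicate 2, and the genotypes overlapped. The log2 fold change was -0.19 (SE 0.17, limma adjusted p = 0.658), with an interval from 0.664-fold to 1.16-fold. It was -0.03 without heterozygous replicate 2, -0.08 without wild-type replicate 2 and -0.36 without heterozygous replicate 1.

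Adipocyte markers were read beside *Pparg* because fat tissue attached to a heart would bring *Pparg* transcripts with it. The defining markers were low in all libraries. *Adipoq*, the adiponectin gene, had 0.36 and 0.13 TPM in wild-type and 0.04 and 0.09 TPM in heterozygous hearts. *Plin1* was at most 0.10 TPM and *Cidec* at most 0.09 TPM. *Cfd* had 1.87 and 0.94 TPM in wild-type and 0.07 and 0.53 TPM in heterozygous hearts. *Lep* was at most 0.02 TPM and *Retn* at most 0.22 TPM. Of 5 white fat markers detected in all libraries, 4 separated downwards in scaled TPM, where 22.2% of all genes separated downwards and 23.0% upwards. Of the brown fat markers, *Ucp1* was at 0 in 3 libraries and *Elovl3* at most 0.03 TPM, whereas *Cidea* had 6.12 and 7.18 TPM in wild-type and 4.50 and 5.63 TPM in heterozygous hearts. *Fabp4*, which capillary endothelium also expresses (236 to 519 TPM), made up nearly all of the white fat list, whose summed scaled TPM was 381 and 410 in wild-type and 288 and 327 in heterozygous hearts. The part of these cells in the *Pparg* values was not tested.

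Within the PPAR family, *Ppard* held the largest share of the summed TPM in all libraries, at 61.0% and 52.5% in wild-type and 58.8% and 67.8% in heterozygous hearts. *Pparg* held 32.4% and 38.8% against 33.0% and 27.9%, and *Ppara* 6.67% and 8.66% against 8.12% and 4.36%. The shares of each of the 3 receptors overlapped between genotypes.

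The dimer partner *Rxra* (chromosome 2, 27676440 to 27762957) encodes RXRα, one of the RXR receptors with which every PPAR pairs. Its scaled TPM was 2.36 and 2.51 in wild-type and 1.94 and 2.13 in heterozygous hearts, so both heterozygous libraries lay below both wild-type libraries. The log2 fold change was -0.18 (SE 0.13, limma adjusted p = 0.586), with an interval from 0.709-fold to 1.10-fold. It was -0.48 without scaling and -0.505 with mitochondrial transcripts removed, where all tested genes had medians of -0.35 and -0.29. The related receptors did not separate in the same way. *Rxrb* had 7.47 and 6.89 scaled TPM in wild-type and 8.10 and 7.06 in heterozygous hearts (log2 fold change 0.07, limma adjusted p = 0.869; -0.32 without scaling). *Rxrg* had 7.11 and 7.46 against 6.65 and 8.72 (0.06, adjusted p = 0.902; -0.33 without scaling). *Rxra* thus took the smallest share of RXR transcripts per length in each library, 13.9% and 14.9% in wild-type and 11.6% and 11.9% in heterozygous hearts.

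**Figure D2:**
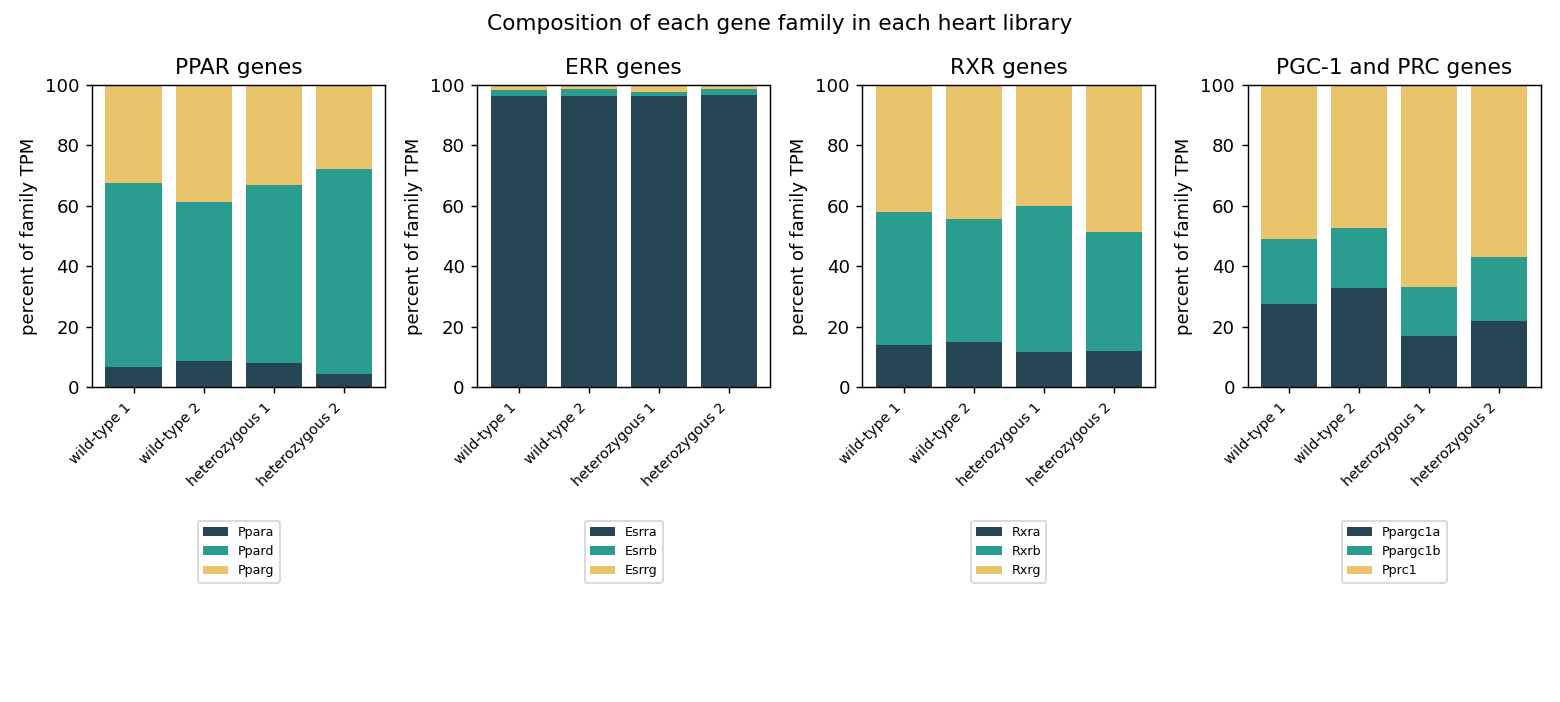
Share of each member in the summed TPM of its gene family (vertical axis, percent) in each library, for the PPAR, ERR, RXR and PGC-1 families (stacked bars). *Esrra* makes up over 96% of ERR transcripts in every library, *Ppard* leads the PPAR family, and *Ppargc1a* holds a lower share in both heterozygous libraries than in both wild-type libraries. The PGC-1 sum includes *Pprc1*, which holds 50.9% and 47.4% in wild-type and 66.9% and 56.8% in heterozygous libraries.

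The PGC-1 coactivators stood within 1.69-fold of each other in TPM, per length, in every library. *Ppargc1a* (chromosome 5, 51454250 to 51567726) encodes PGC-1α, known as the inducible coactivator that responds to cold, exercise and fasting. Its scaled TPM was 1.01 and 1.10 in wild-type and 0.987 and 0.901 in heterozygous hearts. Both heterozygous libraries lay just below both wild-type libraries, and the means were 1.06 ± 0.0690 (SD, n = 2) and 0.944 ± 0.0609 (SD, n = 2). The log2 fold change was -0.08 (SE 0.14, limma adjusted p = 0.825), with an interval from 0.754-fold to 1.19-fold. It was -0.30 without scaling.

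*Ppargc1b* (chromosome 18, 61298136 to 61400431) encodes PGC-1β, a relative of PGC-1α with overlapping targets in mitochondrial gene expression. Scaled TPM of *Ppargc1b* was 0.795 and 0.655 in wild-type and 0.938 and 0.879 in heterozygous hearts. It was the 1 regulator whose heterozygous libraries both lay above both wild-type libraries, with a ratio of means of 1.25. In the limma fit with every detected gene its log2 fold change was 0.15 (adjusted p = 0.708). In deposited TPM the heterozygous libraries lay below instead, at 0.77 and 0.80 against 0.86 and 0.83, so this direction depends on the scaling (log2 fold change -0.05).

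A ratio of 2 genes within a library does not depend on how libraries are scaled to each other. The ratio of *Ppargc1a* to *Ppargc1b* was 1.27 and 1.69 in wild-type and 1.05 and 1.02 in heterozygous hearts, so the genotypes were separate. Its log2 value averaged 0.55 ± 0.29 (SD, n = 2) and 0.05 ± 0.03 (SD, n = 2), a difference of -0.49 (exact permutation test, two-sided, p = 0.33, adjusted over 5 ratios 0.832). With 2 against 2 libraries 0.33 is the smallest p the test can give. *Pprc1*, the 3rd member of the family, encodes a coactivator known to respond to growth signals. It had 1.87 and 1.59 scaled TPM in wild-type and 3.89 and 2.34 in heterozygous hearts (log2 fold change 0.57, SE 0.20, limma adjusted p = 0.366). This value was 0.26 with TPM as deposited, 0.30 without heterozygous replicate 1 and 0.85 without heterozygous replicate 2. The share of *Ppargc1a* in the summed TPM of these 3 genes was 27.5% and 33.0% in wild-type and 17.0% and 21.9% in heterozygous hearts.

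*Nrip1* (chromosome 16, 76287400 to 76373827) encodes the corepressor RIP140, which is known to hold back oxidative genes in fat and muscle. Scaled values were 0.462 and 0.576 in wild-type and 0.439 and 0.275 in heterozygous hearts. Both heterozygous libraries lay below both wild-type libraries, though heterozygous replicate 1 came close to wild-type replicate 1. The ratio of means was 0.687, and the limma fit with every detected gene gave a log2 fold change of -0.17 (adjusted p = 0.702) on the scale of scaled TPM + 1. The ratio of *Ppargc1a* to *Nrip1*, coactivator to corepressor, was 2.18 and 1.92 in wild-type and 2.25 and 3.28 in heterozygous hearts. These values were separate as well, by a log2 difference of 0.41 (exact permutation test, two-sided, p = 0.33, adjusted 0.832). The gap between wild-type replicate 1 and heterozygous replicate 1 was narrow enough for rounding of the deposited values to close it. Leaving out 1 library gave differences from 0.14 to 0.68.

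*Esrra* (chromosome 19, 6910977 to 6921813) encodes ERRα, the receptor through which PGC-1α is known to raise genes of the respiratory chain. In scaled TPM it had 34.3 and 36.1 in wild-type and 37.2 and 32.9 in heterozygous hearts, so the 2 heterozygous libraries enclosed the wild-type pair. The means were 35.2 ± 1.24 (SD, n = 2) and 35.0 ± 3.04 (SD, n = 2), a log2 fold change of -0.01 (SE 0.17, limma adjusted p = 0.986) with an interval from 0.754-fold to 1.31-fold. Its deposited TPM were 37.2 and 45.8 in wild-type and 30.5 and 29.9 in heterozygous hearts, lower in both (log2 fold change -0.44, adjusted p = 0.196). The gene overlaps *Trmt112* on the opposite strand (6.14 to 12.5 TPM), and with the strand of counting not stated, reads of the shared stretch cannot be told apart.

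*Esrrb* and *Esrrg* encode ERRβ and ERRγ, of which ERRγ is known in oxidative tissues such as heart, and ERRβ in early embryos and the inner ear. *Esrrb* (chromosome 12, 86361117 to 86521628) had 0.702 and 0.860 scaled TPM in wild-type and 0.609 and 0.681 in heterozygous hearts, where both heterozygous libraries were lower. With every detected gene in the fit, its log2 fold change was -0.11 (limma adjusted p = 0.752). *Esrrg* (chromosome 1, 187608791 to 188214885) had 0.628 and 0.513 in wild-type and 0.877 and 0.461 in heterozygous hearts (0.08, adjusted p = 0.875). The heterozygous pair held both the highest and the lowest *Esrrg* value, and the log2 fold change was -0.09 without scaling. *Esrra* made up between 96.2% and 96.6% of ERR transcripts per length in every library, and its ratio to *Esrrg* was 54.7 and 70.4 in wild-type and 42.4 and 71.3 in heterozygous hearts (two-sided exact permutation p = 1).

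**Figure D3:**
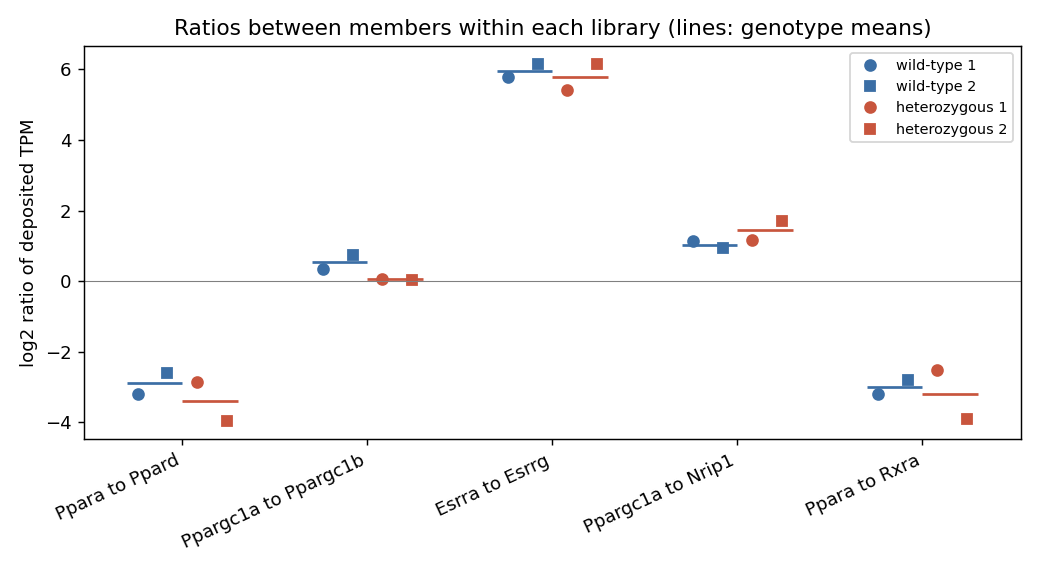
Log2 ratio of deposited TPM within each library (vertical axis) for the 5 pairs of regulators tested, with points for libraries and short lines for genotype means. The genotypes are separate for *Ppargc1a* to *Ppargc1b* (difference -0.49) and, narrowly, for *Ppargc1a* to *Nrip1* (0.41), and overlap for the other 3.

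The 2 remaining ratios set *Ppara* against the related receptor *Ppard* and the dimer partner *Rxra*. *Ppara* to *Ppard* had log2 values of -3.19 and -2.60 in wild-type and -2.86 and -3.96 in heterozygous hearts (difference -0.51, exact permutation p = 0.667). *Ppara* to *Rxra* had -3.19 and -2.79 against -2.51 and -3.90 (difference -0.21, exact permutation p = 1). Both ratios overlapped between genotypes, with heterozygous replicate 2 lowest in each. Both differences turned positive, to 0.10 and 0.30, when 1 was added to each TPM.

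The genes with the most similar profiles were sought for *Ppara*, *Ppargc1a* and *Esrra*, by the distance between mean-centred log2(scaled TPM + 1) values over the 4 libraries. Nearest to *Ppara* were *Nol6*, *Rusc1* and *Ddx54* (distances 0.0163, 0.0237 and 0.0244, where *Ppara* itself spanned 0.254). Nearest to *Ppargc1a* were *Armc8*, *Atrn* and *Zfp984* (0.0181, 0.0221 and 0.0222). Nearest to *Esrra* were *Atp1b2*, *Dctn4* and *Mttp* (0.0199, 0.0204 and 0.0209). This likeness rests on 4 points. Adding 1 understates the change of genes near or under 1 TPM. Nearness to *Ppara* or *Ppargc1a* here thus need not mean a similar fold change.

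Most target genes of these regulators had lower values in heterozygous hearts, though none passed the test. Of 35 textbook PPAR targets, 32 were tested, and all 32 had a negative log2 fold change, with a median of -0.47 and a range from -2.03 to -0.20, against -0.01 over all genes tested. None was called (smallest limma adjusted p = 0.173), and 19 had an unadjusted p under 0.05, all of them lower, against 6.08% of all tested genes. *Angptl4* and *Acot2* passed the floor only through wild-type libraries. Several of these genes are on the study's own list of differing genes from these samples. Its methods name DESeq2, a test on read counts, for such lists. The tally of negative values is thus not independent evidence of a direction. In scaled TPM, 30 of the 33 detected in all libraries separated downwards and none upwards, against 22.2% and 23.0% of all genes. Leaving out any 1 library kept the median between -0.62 and -0.43.

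*Pdk4* encodes the kinase that shuts pyruvate dehydrogenase and so spares glucose. It had 13.9 and 7.73 scaled TPM in wild-type and 2.36 and 1.33 in heterozygous hearts, with a log2 fold change of -2.03 (SE 0.29, limma adjusted p = 0.173). Its ratio of means, wild-type to heterozygous, was 5.87, and the genotypes were far apart. *Ucp3*, a mitochondrial carrier tied to fatty acid use, had 38.1 and 25.7 against 11.9 and 9.74 (-1.45, SE 0.22, adjusted p = 0.186). *Angptl4*, an inhibitor of lipoprotein lipase, had 3.20 and 1.74 against 0.463 and 0.253 (-1.32, SE 0.22, adjusted p = 0.197). In all of these the lowest wild-type library was above the highest heterozygous library. In unscaled TPM, in which all tested genes had a median of -0.35, the limma adjusted p was 0.00884 for *Pdk4*, 0.0220 for *Ucp3* and 0.0342 for *Angptl4*. With mitochondrial transcripts removed it was 0.0822, 0.0822 and 0.0880. With no filter on low values it was 0.522, 0.482 and 0.522 in scaled TPM, and 0.291 for each of them in unscaled TPM. *Angptl4* entered the test only through its wild-type level, and its log2 fold change was -2.46 with a pseudocount of 0.1 and -0.47 with 5.

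Other PPAR targets were closer together. *Acot1*, a thioesterase of fatty acyl-CoA, had 3.23 and 3.31 scaled TPM in wild-type and 0.402 and 2.36 in heterozygous hearts, so that heterozygous replicate 1 carried most of the difference (log2 fold change -0.98, limma adjusted p = 0.371). *Plin2*, which coats lipid droplets, had 6.74 and 8.34 against 3.92 and 6.05 (-0.53, adjusted p = 0.389). *Fabp3*, the heart fatty acid binding protein, had 1011 and 1051 against 617 and 896 (-0.47, adjusted p = 0.456). Members of the oxidation pathway varied. *Hadha*, a subunit of the trifunctional enzyme of β-oxidation, chosen after its values were seen, had 69.2 and 69.8 against 40.2 and 43.1 (-0.72, adjusted p = 0.286). *Cpt1b*, the gate for fatty acids into mitochondria, had 121 and 121 against 119 and 91.3 (-0.21, adjusted p = 0.671), and *Acadm*, the medium-chain dehydrogenase whose window is printed above, had 110 and 118 against 109 and 89.7 (-0.20, adjusted p = 0.665).

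**Figure D4:**
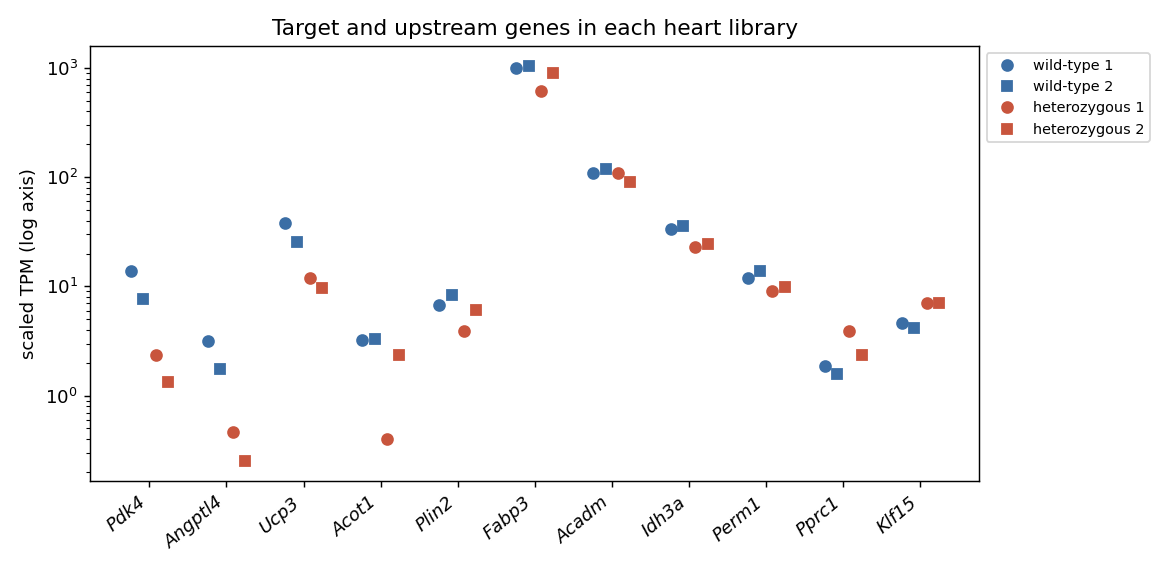
Scaled TPM (vertical axis, log scale) of 7 PPAR targets, the ERR and PGC-1 targets *Idh3a* and *Perm1*, the coactivator *Pprc1* and the upstream gene *Klf15*, with 1 point per library. *Pdk4*, *Ucp3* and *Angptl4* are at least 2-fold apart between the nearest libraries of the genotypes, and *Pprc1* and *Klf15* are higher in both heterozygous libraries.

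All 28 ERR and PGC-1 targets were tested, and 27 had a negative log2 fold change, with a median of -0.40 and a range from -0.72 to 0.19. None was called (smallest limma adjusted p = 0.322), and 10 had an unadjusted p under 0.05, all lower, where 6.08% of all tested genes were lower and 6.22% higher. In scaled TPM, 20 of the 28 separated downwards and none upwards, against 22.2% and 23.0% of all genes. The list was chosen with earlier results of these data known, so these counts are not independent evidence of a direction. *Idh3a*, a subunit of the citric acid cycle enzyme isocitrate dehydrogenase, had 33.6 and 35.9 scaled TPM in wild-type and 23.1 and 24.3 in heterozygous hearts (log2 fold change -0.53, adjusted p = 0.336). *Ckmt2*, the mitochondrial creatine kinase of muscle, had 462 and 543 against 342 and 378 (-0.48, adjusted p = 0.407). *Perm1*, a muscle regulator induced by PGC-1 and ERR whose window is printed above, had 12.0 and 13.9 against 9.14 and 9.84 (-0.41, adjusted p = 0.380). These 3 genes separated by genotype.

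The other named genes of the list act in electron and nucleotide transfer and in ATP synthesis. *Slc25a4*, which exchanges ADP for ATP across the inner membrane, had 588 and 699 scaled TPM in wild-type and 398 and 536 in heterozygous hearts (log2 fold change -0.47, limma adjusted p = 0.443). *Cycs*, the cytochrome c gene, had 63.0 and 61.3 against 46.3 and 58.8 (-0.25, adjusted p = 0.595). *Atp5b*, a core subunit of ATP synthase, had 2174 and 2206 against 1825 and 2370 (-0.07, adjusted p = 0.906), and there the genotypes overlapped. Heterozygous replicate 1, which had the largest mitochondrial share, was the lowest library for these 3 genes. Without heterozygous replicate 1, 21 of the 28 targets were negative and the median was -0.27. With mitochondrial transcripts removed and no further scaling, the median was -0.73, where all tested genes had -0.29.

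**Figure D5:**
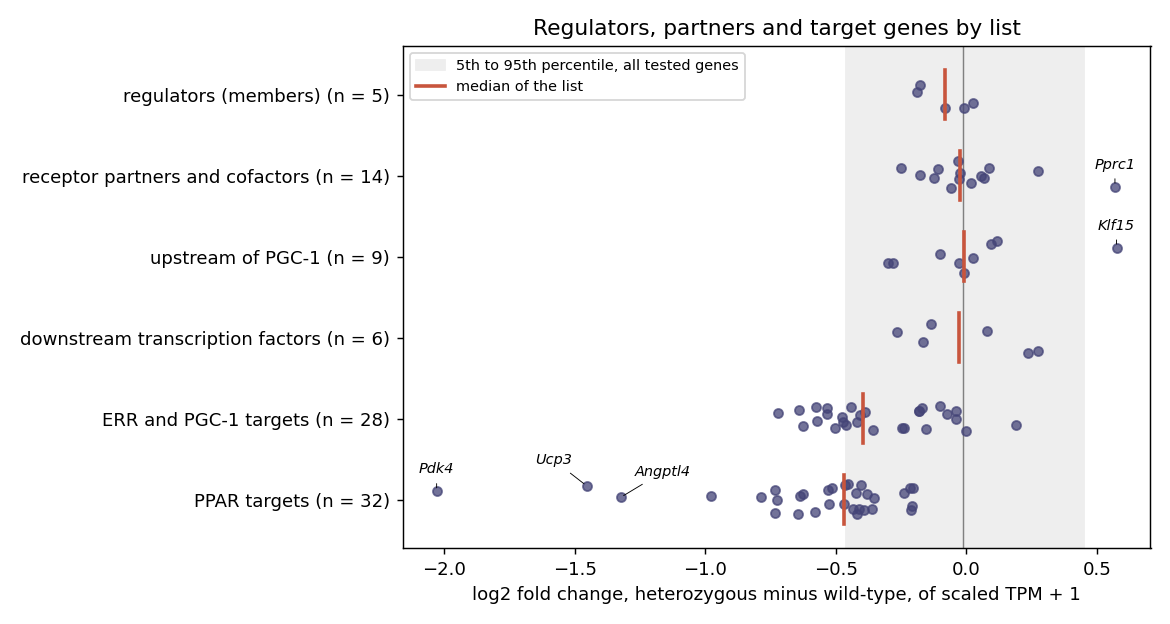
Log2 fold change of scaled TPM + 1, heterozygous minus wild-type (horizontal axis), for each tested gene of the 6 lists, with a red line at each median and a grey band from the 5th to the 95th percentile of all tested genes. Regulators, partners and upstream genes have medians between -0.08 and -0.01, while the medians of the target lists are -0.47 and -0.40. Only 5 of the 10 regulators were tested, and adding 1 understates changes of genes near or under 1 TPM. With a pseudocount of 0.1 the medians were -0.15 for regulators, -0.54 for PPAR targets and -0.40 for ERR and PGC-1 targets.

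The lists of partners, upstream genes and downstream factors had medians near that of all genes, with *Pprc1* and *Klf15* above the 95th percentile of 0.45. Of 16 receptor partners and cofactors 14 were tested, 8 with a negative and 6 with a positive log2 fold change, with a median of -0.03. The corepressor *Ncor1* had 8.80 and 11.2 scaled TPM in wild-type and 12.6 and 7.96 in heterozygous hearts, and its log2 fold change of 0.02 turned to -0.38 without scaling. *Med1*, the mediator subunit that contacts PPARs, and *Lpin1*, a lipin that works with PGC-1α, had log2 fold changes of -0.02 and -0.03. None of the cofactors was called.

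Among 10 genes that act on PGC-1, 9 were tested and none was called (smallest limma adjusted p = 0.307, that of *Klf15*). In scaled TPM, 3 of the 10 separated downwards and 1 upwards, against 22.2% and 23.0% of all genes. *Creb1* (log2 fold change -0.30) and *Atf2* (-0.28), named after their values were seen, separated downwards. *Creb1* cleared the floor only through its wild-type libraries. *Klf15*, a Krüppel-like factor that controls lipid and amino acid use in the heart, had 4.66 and 4.20 scaled TPM in wild-type and 7.04 and 7.11 in heterozygous hearts. Both heterozygous libraries were higher, with a ratio of means of 1.60 and a log2 fold change of 0.57 (SE 0.14, unadjusted p = 0.00466). The log2 fold change was 0.20 with TPM as deposited and 0.33 with mitochondrial transcripts removed, neither with an unadjusted p under 0.05. *Sirt1*, the deacetylase that activates PGC-1α, had 5.03 in both wild-type libraries and 6.01 and 4.12 in heterozygous hearts (-0.01, adjusted p = 0.989). *Prkaa2*, the muscle subunit of AMP-activated kinase, lay under the floor, with 1.04 and 0.907 scaled TPM against 0.719 and 0.659, both heterozygous libraries being lower. Of 6 downstream transcription factors, all tested, 3 were negative and 3 positive. *Nrf1* and *Gabpa*, which drive nuclear genes of mitochondria, had log2 fold changes of 0.24 and 0.08, and these turned to -0.05 and -0.30 without scaling. *Tfam*, which maintains mitochondrial DNA, had 3.43 and 2.49 against 2.35 and 2.67 (-0.17, limma adjusted p = 0.682).

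Marker genes of cell types also differed between libraries. Of 6 cardiomyocyte markers, *Actc1* (log2 fold change -0.47) and *Myl2* (-0.40) separated downwards and the other 4 overlapped, where 22.2% of all genes separated downwards. The median of the 6 was -0.12, and *Myh6* had 0.07, or -0.37 without scaling. All 3 tested smooth muscle markers were negative (median -0.19), with *Acta2* at -0.54, while the untested *Cnn1* had 0.231 and 0.134 scaled TPM in wild-type and 0.183 and 0.945 in heterozygous hearts. Summed scaled TPM of 4 atrial genes was 810 and 2340 in wild-type and 1910 and 3255 in heterozygous hearts, so wild-type replicate 1 held the least atrial signal. Erythroid genes summed to 935 and 981 in wild-type and to 962 and 2104 in heterozygous hearts, highest in heterozygous replicate 2, the library with the lowest *Ppara*, *Pparg*, *Ppargc1a*, *Esrra*, *Esrrg* and *Nrip1*. Endothelial genes summed to 252 and 248 against 285 and 327, of which *Egfl7* gave 197.5 and 192.1 against 233.9 and 274.9. *Pecam1*, another of the 5 endothelial markers, had 12.8 and 13.8 against 8.50 and 10.7, and the median log2 fold change of the list was -0.02. Sums of fibroblast genes (54.6 and 77.0 against 51.8 and 55.0) and macrophage genes (18.6 and 18.0 against 15.2 and 20.9) overlapped. The part of these cells in the levels of the regulators and their targets was not tested.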

How the data were processed

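Poly(A) RNA of mouse hearts was sequenced in 4 libraries, and the labels do not say whether each came from a separate animal. The authors processed the reads with Trim Galore, STAR and RSEM on mm10, per the submitters' notes and the study's methods. The annotation release and the strand of counting were not given in the sources used here. The deposited values are TPM per gene with 2 decimals, so the read depth is unknown, and no count test was run. Of 55401 gene IDs, 55141 matched GENCODE M21, which supplied the coordinates.

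TPM were divided by median-of-ratios factors and log2-transformed after adding 1. The 10036 genes that averaged 1 TPM or more were fitted by genotype with limma 3.58.1 in R 4.3.3 (trended empirical Bayes, two-sided, Benjamini-Hochberg adjustment over all tested genes). Calls needed an adjusted p below 0.05 with more than 1.5-fold difference, and "lower" or "higher" otherwise describes values. The 95% intervals came from the same fit, and folds in them are of scaled TPM + 1. Ratios of 2 genes were tested by exact permutation over the libraries with scipy 1.17.1. The script was tested on simulated data. The labels number the replicates and name no shared animals or batches, so p-values measure the spread between these libraries.

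Named genes were all 10 regulators, *Ctcf*, chosen genes of each list and the 3 nearest profiles, and some named genes are not reported here. The members and lists were chosen with earlier results of these data known. Alternatives covered the pseudocount, the floor, the scaling, the empirical Bayes settings, a replicate block and leaving out each library.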

Additional observations from a re-analysis of the deposited data

How the results depend on the processing

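No regulator was called under any alternative in which it was tested. All 10 were tested with no filter on low values, and 9 with mitochondrial transcripts removed. The other alternatives tested 5, apart from 4 without wild-type replicate 2 and 1 with a floor of 5 TPM. Genes called over the whole table numbered 3, and 0 with no filter on low values, 13 with TPM as deposited, 5 with robust empirical Bayes and 8 with mitochondrial transcripts removed. This last setting also drops the median-of-ratios scaling and tests 12693 genes, here and below. Leaving out 1 library gave 7 to 33 calls: 23 without wild-type replicate 1, 33 without wild-type replicate 2, 16 without heterozygous replicate 1 and 7 without heterozygous replicate 2. A lone library was then assumed to vary like the other genotype. A replicate block in the fit gave 11 calls, among them *Pdk4* (-2.03, limma adjusted p = 0.00391) and *Ucp3* (-1.45, 0.0403). Same-numbered libraries shared only a number, with a correlation of deviations of 0.101.

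Medians of log2 fold changes with TPM as deposited were -0.44 for the tested regulators, -0.90 for PPAR targets, -0.82 for ERR and PGC-1 targets and -0.37 for partners and upstream genes. With mitochondrial transcripts removed they were -0.36, -0.80, -0.73 and -0.32. Quantile normalization gave -0.26 for ERR and PGC-1 targets. Leaving out 1 library gave -0.12 to -0.03 for regulators, -0.62 to -0.43 for PPAR targets, -0.46 to -0.27 for ERR and PGC-1 targets and -0.13 to 0.12 for partners and upstream genes. The last range changed sign, with 0.12 without heterozygous replicate 2 and -0.13 without heterozygous replicate 1.

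Among the 31 named genes refitted, TPM as deposited turned the signs of *Ppard* (-0.28), *Ctcf* (-0.29), *Rxrb* (-0.32) and *Rxrg* (-0.33). It also turned those of *Ncor1* (-0.38), *Nrf1* (-0.048) and *Gabpa* (-0.30). Outside these 31, the signs of *Myh6* (-0.37), *Egfl7* (-0.058) and *Cidea* (-0.34) turned as well. With mitochondrial transcripts removed, signs that turned among the 31 were those of *Ppard* (-0.25), *Ctcf* (-0.21), *Rxrb* (-0.24), *Rxrg* (-0.25), *Ncor1* (-0.30) and *Gabpa* (-0.22). Quantile normalization gave 0.016 for *Esrra*. Leaving out 1 library turned *Ppard* (-0.032 to 0.079), *Esrra* (-0.10 to 0.072), *Ctcf* (-0.079 to 0.26), *Atp5b* (-0.27 to 0.11), *Rxrb* (-0.023 to 0.15), *Rxrg* (-0.12 to 0.23), *Ncor1* (-0.29 to 0.31), *Med1* (-0.081 to 0.028), *Lpin1* (-0.087 to 0.016), *Gabpa* (-0.20 to 0.35) and *Sirt1* (-0.24 to 0.21). *Pdk4* also passed without wild-type replicate 1 (adjusted p = 0.0470) or 2 (0.00243), and *Angptl4* (0.00807) and *Ucp3* (0.0434) without wild-type replicate 2. With 1 added to both TPM, the genotype difference in the log2 ratio turned to 0.10 for *Ppara* to *Ppard* and to 0.30 for *Ppara* to *Rxra*. Leaving out 1 library gave -1.06 to 0.039 for *Ppara* to *Ppard*, -0.55 to 0.20 for *Esrra* to *Esrrg*, -0.91 to 0.48 for *Ppara* to *Rxra*, -0.70 to -0.29 for *Ppargc1a* to *Ppargc1b* and 0.14 to 0.68 for *Ppargc1a* to *Nrip1*. Without heterozygous replicate 1 or 2, respectively, log2 fold changes were -0.28 and -0.80 for *Plin2*, -0.21 and -0.74 for *Fabp3*, -0.41 and -0.027 for *Cpt1b*, -0.35 and -0.07 for *Acadm*, -0.35 and -1.63 for *Acot1*, -0.26 and -0.69 for *Slc25a4*, -0.083 and -0.42 for *Cycs* and 0.45 and 0.025 for *Nrf1*. That of *Tfam* ranged from -0.33 to 0 over the libraries left out, and *Ppargc1a* from -0.12 to -0.052, falling under the floor without wild-type replicate 2. With pseudocounts of 0.1 and 5, respectively, log2 fold changes were -0.32 and -0.067 for *Pparg* and -0.15 and -0.027 for *Ppargc1a*. They were -0.25 and -0.08 for *Rxra* and 0.036 and 0.012 for *Ppard*. Outside the regulators they were -2.48 and -1.19 for *Pdk4*, -1.60 and -0.39 for *Acot1*, 0.78 and 0.26 for *Pprc1* and 0.67 and 0.36 for *Klf15*. None of the 31 named genes refitted changed sign with either pseudocount. The regulators under the floor were not refitted there. The cause of these shifts was not tested.

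The 2 libraries per genotype and 2 residual degrees of freedom limit every test, and without read counts the error behind the lowest regulators is unknown.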
